A study of Mus musculus with 2 samples.

Results

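The genes described are 10 members of the mouse Notch pathway. They are 3 ligands (Dll1, Dll3, Jag1), 3 receptors (Notch1, Notch2, Notch3) and 4 genes grouped here as targets (Hes1, Hes5, Hes6, Hey1). Whether Notch controls each of these 4 in the cells studied was not tested. All 10 were chosen by name from the 32285 mouse genes of the deposited count matrices, and each name matched 1 gene. The series holds 2 single-cell RNA libraries of brain with an implanted GL261 tumour, a mouse glioma line, taken on day 24. One library is labelled Cav3.2KO and comes from hosts with the genotype Cacna1H-/-, which lack the T-type calcium channel Cav3.2. The other is labelled WT and comes from hosts given as C57BlL6 WT. The same tumour line was implanted in both kinds of host, and the tissue held tumour and surrounding host cells. With 1 library per label no test between labels was possible, and every interval below is an exact 95% interval that covers counting error only.

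Notch receptors are cell-surface proteins that are cut when a ligand on a neighbouring cell binds them, and the freed inner part enters the nucleus and joins the DNA-binding protein RBPJ. This complex turns on certain genes of the Hes and Hey families. Their products are repressors that hold back proneural factors and, through them, ligands such as Dll1 and Dll3, so that neighbouring cells can settle into unlike states. In the brain the pathway is known for keeping neural stem cells from maturing, in the immune system for steering T cells, marginal zone B cells and dendritic cells, and in vessels for shaping arteries and mural cells.

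The library labelled Cav3.2KO held 100764971 mouse UMIs in 6575 cells that passed the filters, with a median of 11071 UMIs and 3306 genes per cell. The library labelled WT held 52031677 UMIs in 3110 cells, with medians of 12522.5 UMIs and 3604.5 genes. The labels were checked first. Cacna1h had 1.67 CPM (1.42 to 1.94, 168 UMIs) under the Cav3.2KO label and 0.250 CPM (0.133 to 0.427, 13 UMIs) under the WT label, against the direction of the labels. CPM are UMIs of a gene scaled to the summed mouse UMIs of the same cells. The sources used here do not say whether the deletion removes the end of the transcript that is counted, and the implanted line brings its own copy of the gene. Of 4875 host cells under the Cav3.2KO label, 3454 had Xist and no Y-linked UMI, and 824 had a Y-linked and no Xist UMI. Of 2106 host cells under the WT label, 0 had Xist alone and 1802 had Y-linked UMIs alone. Genotype, sex, animal and library therefore cannot be told apart. The host ratios past the limit of size are therefore also given within cells of 1 kind, where enough of them were found. The libraries shared 7 cell barcodes.

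Cells were assigned to 15 classes by their markers, and 8 classes held at least 50 cells in each library. Tumour-gated cells numbered 997 under the Cav3.2KO label, with a median of 26790 UMIs, and 575 under the WT label, with a median of 31433 UMIs. All 10 tumour markers were detected in both libraries. The other 7 classes held 205 to 1584 cells under the Cav3.2KO label and 59 to 623 cells under the WT label. They were T cells, NK cells, B cells, plasmacytoid dendritic cells, conventional dendritic cells, monocytes with macrophages, and microglia. UMIs of this kit count tags near the end of a transcript and were not divided by length, so levels are compared between classes and libraries and not between genes.

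**Figure D1:**
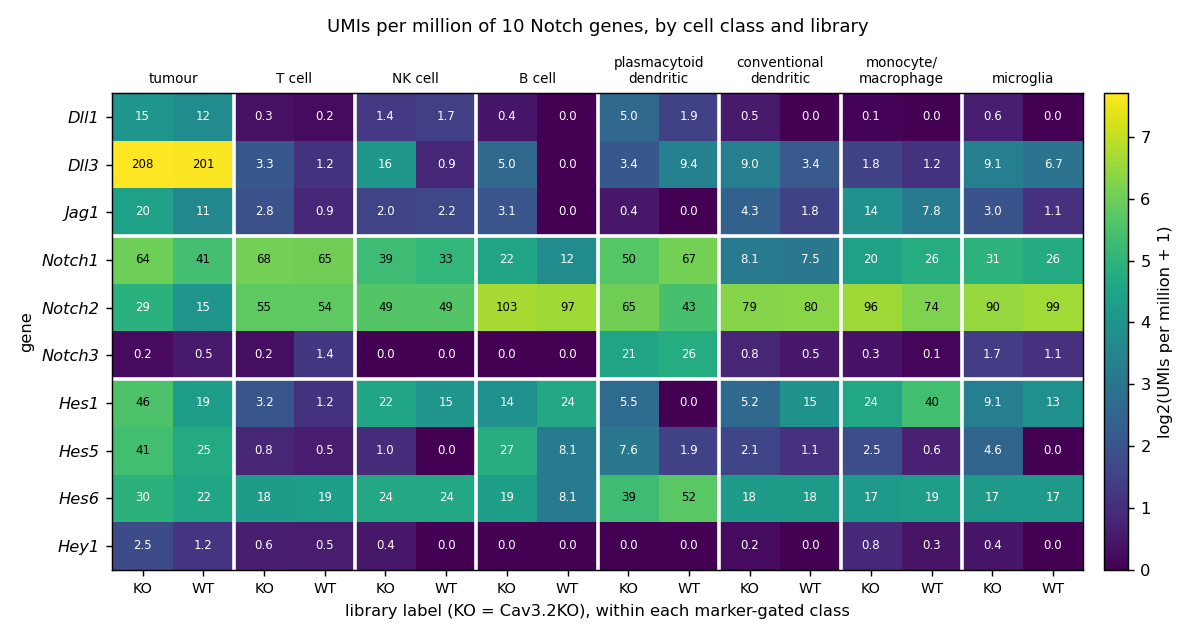
Level of each of the 10 genes (rows, ordered as ligands, receptors and targets) in the 8 classes (column pairs, Cav3.2KO label left of WT label), as CPM printed in each cell and coloured on the log2(CPM + 1) scale. Dll3 stands out in tumour cells at 208 CPM under the Cav3.2KO label and 201 CPM under the WT label, while Notch2 has its lowest level of the 8 classes there, at 29.1 CPM under the Cav3.2KO label and 15.5 CPM under the WT label.

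The promoters of Hes5 and Dll3 are shown because these genes were high in different tumour cell states, as described further on. The sequences are the 250 bases before the RefSeq transcript start in GRCm38.p6, read in the direction of the gene. Capitals mark either of a pair of motifs searched on both strands. GTGGGAA holds the letters RBPJ is known to bind and reads TTCCCAC when it lies on the other strand. CAGCTG is an E-box that proneural factors are known to bind and reads the same on both strands. The motifs do not overlap in these windows.
Hes5, chr4:154960673-154960922, + strand: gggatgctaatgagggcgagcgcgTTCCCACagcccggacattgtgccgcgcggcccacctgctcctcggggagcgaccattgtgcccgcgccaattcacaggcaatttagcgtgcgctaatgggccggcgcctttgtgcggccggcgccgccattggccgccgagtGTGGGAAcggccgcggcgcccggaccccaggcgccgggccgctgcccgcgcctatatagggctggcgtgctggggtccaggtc
Dll3, chr7:28301786-28302035, - strand: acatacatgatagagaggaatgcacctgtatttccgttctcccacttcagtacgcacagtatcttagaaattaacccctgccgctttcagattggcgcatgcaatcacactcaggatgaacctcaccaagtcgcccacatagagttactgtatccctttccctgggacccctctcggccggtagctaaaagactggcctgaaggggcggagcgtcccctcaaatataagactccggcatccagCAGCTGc
The Hes5 window holds GTGGGAA on the gene's own strand from position -83 to -77 and on the other strand from -226 to -220, counted from the transcript start. The Dll3 window holds no GTGGGAA and holds CAGCTG from -7 to -2. Of 32851 promoter windows of the same length, 5.42% hold GTGGGAA at least once, 0.161% hold it 2 or more times, and 13% hold CAGCTG. Of the 10 genes, 8 had a promoter sequence to search. Hes1 and Hey1 had none, so whether they hold either motif was not examined. Hes5 was the only 1 of these 8 with GTGGGAA, and CAGCTG was also found before a start of Hes6, Jag1 and Dll1. A match says only that these letters are present.

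Dll3 (ENSMUSG00000003436, chr7:28293553-28302238 in mm10, - strand), a ligand known to act inside its own cell rather than on neighbours, was found mainly in tumour cells. It had 208 CPM (203 to 213, 6418 UMIs) in tumour cells under the Cav3.2KO label and 201 CPM (195 to 208, 3966 UMIs) under the WT label. Tumour cells held 87.6% of all Dll3 UMIs under the Cav3.2KO label and 86.1% under the WT label. The level in tumour cells thus differed little between the libraries, with a log2 ratio of Cav3.2KO over WT label of 0.05 (-0.01 to 0.11).

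Dll3 UMIs were present in 70.9% of tumour cells under the Cav3.2KO label and 62.1% under the WT label, and in 27.1% under the Cav3.2KO label and 24.5% under the WT label after every cell was thinned to 2000 UMIs. In T cells, which serve as background because mature T cells are not known to make it, the shares were 1.77% at a median depth of 8849 UMIs under the Cav3.2KO label and 0.814% at 7628.5 UMIs under the WT label. After thinning the share was 0.192% under the Cav3.2KO label, and under the WT label no T cell held one, which leaves an exact upper bound of 0.612%. The next of the 8 classes under the Cav3.2KO label was NK cells at 15.9 CPM, where 62 of 79 UMIs lay in 2 of the 9 cells with any. Under the WT label it was plasmacytoid dendritic cells at 9.37 CPM, where all 5 UMIs lay in 1 cell.

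Dll1 (ENSMUSG00000014773, chr17:15367354-15376872, - strand), a ligand that activates Notch in neighbouring cells, was likewise mostly found in tumour cells, which held 83.4% of its UMIs under the Cav3.2KO label and 87.2% under the WT label. Its level there was 15.5 CPM (14.1 to 16.9, 478 UMIs) under the Cav3.2KO label and 12.1 CPM (10.6 to 13.7, 238 UMIs) under the WT label. The log2 ratio of 0.36 (0.13 to 0.59) was below 1.5-fold, the limit of size used throughout. In T cells, macrophages and microglia Dll1 had at most 5 UMIs in either library.

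Jag1 (ENSMUSG00000027276, chr2:137081456-137116644, - strand), a ligand of the Jagged family, was shared between tumour cells and macrophages. Tumour cells had 20.3 CPM (18.7 to 21.9, 625 UMIs) under the Cav3.2KO label and 11.1 CPM (9.69 to 12.7, 219 UMIs) under the WT label. Monocytes and macrophages had 14.0 CPM (12.3 to 16.0, 228 UMIs) under the Cav3.2KO label and 7.83 CPM (6.14 to 9.85, 73 UMIs) under the WT label. Both classes had higher Jag1 under the Cav3.2KO label, by 1.82-fold in tumour cells and 1.79-fold in macrophages. None of the other 6 classes reached 5 CPM in either library.

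Among the receptors, Notch1 (ENSMUSG00000026923, chr2:26457903-26516663, - strand), the receptor that T cell development is known to need, was high in T cells, at 67.6 CPM (63.8 to 71.5) under the Cav3.2KO label and 65.1 CPM (58.8 to 72) under the WT label. Under the Cav3.2KO label the T cell level did not differ beyond the intervals from that of tumour cells at 63.6 CPM. Under the WT label it overlapped that of plasmacytoid dendritic cells at 67.5 CPM (47.3 to 93.4) and stood apart from that of tumour cells at 41.2 CPM. Conventional dendritic cells were the lowest of the 8 classes, at 8.05 CPM under the Cav3.2KO label and 7.5 CPM under the WT label.

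Notch2 (ENSMUSG00000027878, chr3:98013527-98150361, + strand), the receptor that marginal zone B cells and splenic dendritic cells are known to need, was spread over all immune classes. B cells had 103 CPM (90.7 to 116) under the Cav3.2KO label and 97.5 CPM (62.4 to 145) under the WT label. Microglia had 89.8 CPM under the Cav3.2KO label and 98.7 CPM under the WT label, and conventional dendritic cells had 78.8 CPM under the Cav3.2KO label and 79.8 CPM under the WT label. The intervals of B cells, microglia and conventional dendritic cells overlapped from each to the next in both libraries.

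Tumour cells had the lowest Notch2 of the 8 classes, at 29.1 CPM (27.2 to 31.1) under the Cav3.2KO label and 15.5 CPM (13.8 to 17.3) under the WT label, well below NK cells, the next class, at 48.7 CPM under the Cav3.2KO label, and below plasmacytoid dendritic cells, the next under the WT label, at 43.1 CPM, with intervals that did not overlap. Across the 18 sums of a class and library with at least 50 cells, Notch2 and Dll1 ran in opposite directions. Their Pearson's r of -0.87 on the log2(CPM + 1) scale is given because it was the strongest of all pairs of members. The next were Notch2 with Hey1 (-0.77) and Dll1 with Hey1 (0.71). Dll1 had at most 12 UMIs in any immune class of either library, so its levels there rest on few counts. These values are a description over points that share libraries and depth.

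Within the monocyte and macrophage class Notch2 differed between clusters of cells, given here by their leading genes. The cluster led by Pglyrp1 and Adgre4 had 367 CPM in 41 cells under the Cav3.2KO label and 369 CPM in 20 cells under the WT label. The cluster led by Slpi, with the monocyte gene Vcan, had 226 CPM in 105 cells under the Cav3.2KO label and 214 CPM in 23 cells under the WT label. In the large cluster led by Ly6i and Inhba, Notch2 had 97.9 CPM under the Cav3.2KO label and 84.5 CPM under the WT label, and in the one led by H2-M2 and Mmp13 it had 67.1 CPM under the Cav3.2KO label and 61.8 CPM under the WT label. The order of these 4 clusters was the same in both libraries.

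Notch3 (ENSMUSG00000038146, chr17:32120820-32166852, - strand), a receptor known from the mural cells of vessels, had 174 UMIs in all cells under the Cav3.2KO label and 116 under the WT label. Of the 8 classes only plasmacytoid dendritic cells held it at more than 2 CPM, with 21.4 CPM (16.0 to 28.2, 51 UMIs) under the Cav3.2KO label and 26.2 CPM (14.3 to 44.0, 14 UMIs) under the WT label. Tumour cells had 5 UMIs under the Cav3.2KO label and 9 under the WT label. The antisense gene Gm17276 overlaps Notch3 and had 679 UMIs over both libraries, against 290 of Notch3. The sources used here do not say whether counting used strand, and without strand reads of the pair cannot be told apart. The same holds for Notch1 and 0610009E02Rik, with 287 UMIs against 6642 of Notch1.

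Of the targets, Hes1 (ENSMUSG00000022528, chr16:30064384-30067796, + strand), a repressor turned on by Notch in many tissues, had unlike orders of classes in the libraries. Tumour cells had 46.3 CPM (43.9 to 48.7, 1427 UMIs) under the Cav3.2KO label and 18.8 CPM (16.9 to 20.8, 370 UMIs) under the WT label. Macrophages had 23.6 CPM (21.3 to 26.1, 384 UMIs) under the Cav3.2KO label and 40.1 CPM (36.2 to 44.4, 374 UMIs) under the WT label. Tumour cells were thus the highest of the 8 classes under the Cav3.2KO label, and macrophages were highest under the WT label. T cells were among the lowest, with 3.16 CPM under the Cav3.2KO label and 1.19 CPM under the WT label.

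Hes5 (ENSMUSG00000048001, chr4:154960923-154962371, + strand), a Notch-driven repressor of neural progenitors, was largely found in tumour cells and was held by few of them. Its level there was 40.7 CPM (38.5 to 43.0, 1256 UMIs) under the Cav3.2KO label and 25.1 CPM (22.9 to 27.4, 495 UMIs) under the WT label. Only 13.2% of tumour cells under the Cav3.2KO label and 11.7% under the WT label held a UMI. The 2 cells with the most held 183 UMIs under the Cav3.2KO label and 161 under the WT label, and without them the levels were 34.8 CPM under the Cav3.2KO label and 17.0 CPM under the WT label. The 26.9 CPM in B cells under the Cav3.2KO label came from 70 UMIs, of which 66 lay in 1 cell.

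Hes6 (ENSMUSG00000067071, chr1:91411483-91414038, - strand), a family member known to oppose Hes1 and to favour neuronal differentiation, was found in all 8 classes. Plasmacytoid dendritic cells had the most, at 39.1 CPM under the Cav3.2KO label and 52.5 CPM under the WT label, and tumour cells had 29.7 CPM under the Cav3.2KO label and 22.4 CPM under the WT label. T cells, NK cells, conventional dendritic cells, macrophages and microglia lay between 16.6 and 24.4 CPM in both libraries, and neighbours among these overlapped in their intervals. Hey1 (ENSMUSG00000040289, chr3:8663359-8667256, - strand), a Notch target known from arteries and the heart, had 146 UMIs in all under the Cav3.2KO label and 67 under the WT label. In tumour cells it had 2.46 CPM (1.94 to 3.08, 76 UMIs) under the Cav3.2KO label and 1.22 CPM (0.780 to 1.81, 24 UMIs) under the WT label.

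The comparison between the kinds of host was first made in tumour cells. A gene counted as measured in a class with at least 100 UMIs over both libraries, and as higher or lower by size at 1.5-fold. Of the 9 measured members, 6 were higher under the Cav3.2KO label and 0 were lower, and Dll1, Dll3 and Hes6 were within 1.5-fold. Of all 12436 genes measured in tumour cells, 11.2% were higher and 7.05% were lower, with a median log2 ratio of 0.02, against 0.70 over the 9 members. Both measured receptors, 1 of 3 ligands and 3 of the 4 genes grouped as targets were thus higher by that size.

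The ratio was widest for Hes1, which was 2.46-fold higher under the Cav3.2KO label (log2 1.30, 1.14 to 1.47). Hey1 was 2.02-fold higher on few UMIs (1.02, 0.34 to 1.74). Notch2 was 1.88-fold higher (0.91, 0.72 to 1.10), Jag1 1.82-fold (0.87, 0.64 to 1.10) and Hes5 1.62-fold (0.70, 0.55 to 0.85). Notch1 was nearest to the limit at 1.54-fold (0.62, 0.51 to 0.74). Outside it, Hes6 had a log2 ratio of 0.41 (0.24 to 0.57).

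**Figure D2:**
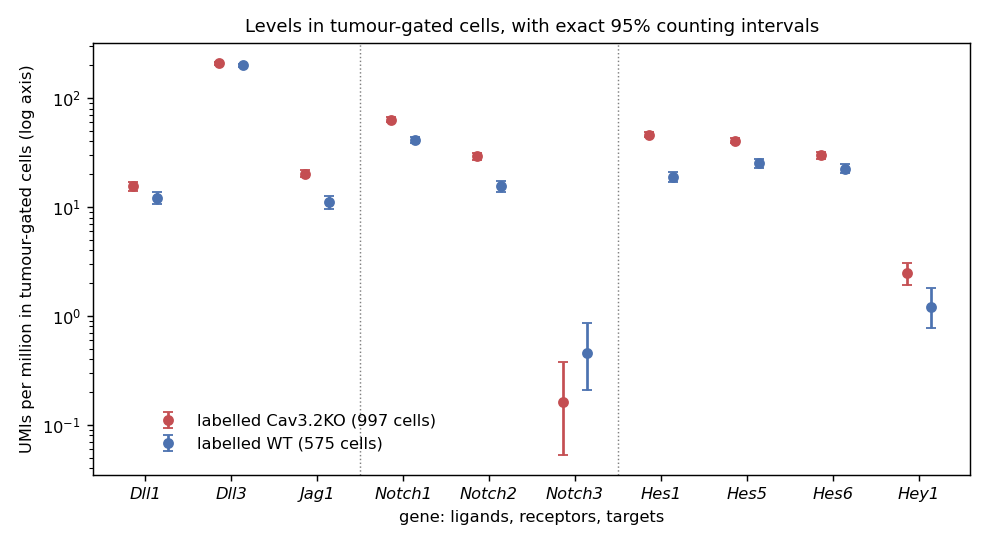
Level of each gene in tumour-gated cells (CPM, log axis) under the Cav3.2KO label (left point of each pair) and the WT label (right point), with exact 95% counting intervals. Hes1 has the widest gap of the measured genes, at 46.3 CPM under the Cav3.2KO label and 18.8 CPM under the WT label, while Dll3 has 208 CPM under the Cav3.2KO label and 201 CPM under the WT label.

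The shares of tumour cells with a UMI were ordered as the levels were. After thinning to 2000 UMIs, a Hes1 UMI was present in 9.74% of tumour cells under the Cav3.2KO label (7.96 to 11.8) and in 4.17% under the WT label (2.69 to 6.15). For Notch2 the thinned share was 7.61% (6.03 to 9.44) under the Cav3.2KO label and 2.61% (1.47 to 4.27) under the WT label. Without thinning the shares were 43.0% for Hes1 and 48.4% for Notch2 under the Cav3.2KO label, and 24.9% and 32.3% under the WT label. Thinning left out 11 of the 997 tumour cells under the Cav3.2KO label and 0 of the 575 under the WT label.

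Some other measures are given beside these ratios. Markers of other classes were present in tumour cells at no more than 3.69% of their level in the class of origin under the Cav3.2KO label (microglia) and 5.72% under the WT label (conventional dendritic cells). At the class's own Hes1 level such RNA would carry at most 0.643 CPM of Hes1 under the Cav3.2KO label and 0.832 CPM under the WT label. Of the 10 B cell markers, 1 was at 0 in tumour cells under the Cav3.2KO label and 3 under the WT label. In tumour cells with neither Xist nor Y-linked UMIs, Hes1 had 46.2 CPM in 877 cells under the Cav3.2KO label and 18.6 CPM in 550 cells under the WT label, and Hes5 had 41.5 CPM under the Cav3.2KO label and 19.8 CPM under the WT label.

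Cell division genes differed in the other direction. The 8 genes of that list summed to 1145 CPM in tumour cells under the Cav3.2KO label and 1891 CPM under the WT label, and 6 of them were at least 1.5-fold lower. The 10 dissociation and stress genes summed to 3377 CPM under the Cav3.2KO label and 3273 CPM under the WT label, with 0 of 8 measured past 1.5-fold. The part of cell division in the ratios of the members was not tested beyond the values by state that follow.

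Tumour cells were split into 9 states by clustering without the 10 genes, and 5 states held at least 50 cells in each library. The libraries filled them unevenly. State 0, led by Apoc1, Arhgap24 and Col2a1, held 42.9% of tumour cells under the Cav3.2KO label and 15.8% under the WT label. State 1, led by the chemokine gene Cxcl9 with Stmn4 and Rmst, held 27.0% under the Cav3.2KO label and 17.9% under the WT label. State 2, led by the mitotic genes Ube2c, Plk1 and Cdc20, held 10.3% under the Cav3.2KO label and 17.9% under the WT label. State 3, led by Cdc6, Tk1 and Rrm2, genes of DNA replication, held 8.63% under the Cav3.2KO label and 12.9% under the WT label. State 4, led by Lrrc4c and Nrxn3, which encode synaptic adhesion proteins, held 5.12% under the Cav3.2KO label and 13.7% under the WT label. State 5, with the ion channel genes Kcnd2 and Scn1a in the lead, and state 6, with Chit1, Gpx2 and Krt8, reached 50 cells only under the WT label, with 64 and 56 cells.

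Dll3 and Hes5 were high in different states in both libraries. Under the Cav3.2KO label Dll3 had 254, 200, 131 and 306 CPM in states 0, 1, 2 and 3 and 29.7 CPM (21.4 to 40.2) in state 4. Under the WT label it had 332, 411, 145 and 262 CPM in states 0, 1, 2 and 3, 32.9 CPM (25.5 to 41.9) in state 4, 21.3 CPM in state 5 and 229 CPM in state 6. The neuronal-gene states 4 and 5 were thus the low ones.

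Hes5 under the Cav3.2KO label had 164 CPM (144 to 187) in state 4 and 60.0 CPM in state 0, and 4.64 to 8.07 CPM in states 1, 2 and 3. Under the WT label it had 76.3 CPM (64.7 to 89.4) in state 4, 89.8 CPM (78.6 to 102) in state 5 and 35.8 CPM in state 0, and 2.36 to 6.33 CPM in states 1, 2 and 3. It was high where Dll3 was low, and in state 0 both were present.

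The other members shared parts of these orders. Dll1 was highest in state 4, at 42.5 CPM under the Cav3.2KO label and 30.4 CPM under the WT label. Notch1 had 102 CPM in state 4 and 88.4 CPM in state 0 under the Cav3.2KO label, against 61.3 CPM and 73.3 CPM in these states under the WT label, and was lowest in state 3 in both. Hes1 was highest in state 0, at 81.6 CPM (76.2 to 87.3) under the Cav3.2KO label and 59.8 CPM (48.8 to 72.6) under the WT label. Jag1 was highest there too, at 33.6 CPM under the Cav3.2KO label and 31.7 CPM under the WT label. Hes1 and Hes5 thus had their highest levels in different states among the 5.

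**Figure D3:**
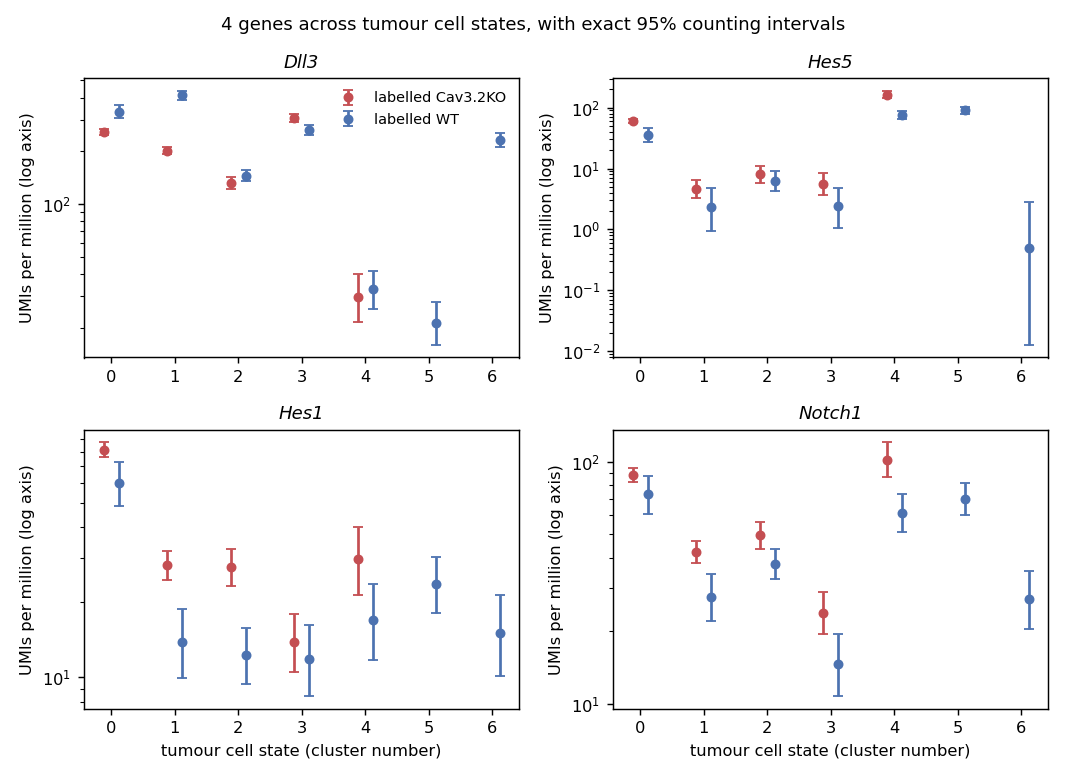
Levels of Dll3, Hes5, Hes1 and Notch1 (CPM, log axis, 1 panel per gene) in tumour cell states 0 to 6 under the Cav3.2KO label (left point) and the WT label (right point), with exact 95% counting intervals and no point where a state held fewer than 50 cells. In state 4 Dll3 is at 29.7 CPM under the Cav3.2KO label and 32.9 CPM under the WT label, where Hes5 is at 164 CPM under the Cav3.2KO label and 76.3 CPM under the WT label.

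Single tumour cells were also counted for pairs of members. Under the Cav3.2KO label 63 cells held both Dll3 and Hes5, where the product of their shares gives 93.6, and under the WT label 32 cells did, where it gives 41.6. Thinned to 2000 UMIs, 7 cells against 12.5 held both under the Cav3.2KO label and 2 cells against 4.17 under the WT label. Dll1 and Hes5 met in 56 cells against 35.2 under the Cav3.2KO label and in 26 against 15.8 under the WT label. Thinned, Dll1 and Hes5 met in 4 cells against 1.68 under the Cav3.2KO label and in 0 cells against 0.591 under the WT label, which is too few to read. Dll3 and Hes1 met in 298 cells against 304 under the Cav3.2KO label and in 89 against 88.8 under the WT label. After thinning they met in 26 cells against 26.0 under the Cav3.2KO label and in 3 against 5.89 under the WT label, so that the small WT counts do not set this pair apart from Dll3 and Hes5. Differences in depth between cells raise all unthinned counts of pairs together.

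Within states the ratios between libraries took several sizes. Notch1 was higher under the Cav3.2KO label in all 5 states, by log2 0.27 to 0.73, with an interval above 0 in 4 of them. Hes1 was also higher in all 5, by 0.23 to 1.17, with an interval above 0 in 4, though it had fewer than 100 UMIs in states 3 and 4. Its widest ratio was in state 2, with 27.6 CPM under the Cav3.2KO label and 12.3 CPM under the WT label. Notch2 and Hes5 each had an interval above 0 in 3 of 5 states, though in state 3, among these, both had fewer than 100 UMIs. Jag1 had an interval above 0 in 2 states, 2 and 3, with fewer than 100 UMIs in each. In states 0 and 1, the only ones with at least 100 UMIs of Jag1, its interval included 0 (log2 0.09 and 0.40). Hey1 had an interval above 0 in 0 of 5 states, with fewer than 100 UMIs in each.

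Dll3, which was level over all tumour cells, was not level within states. It was lower under the Cav3.2KO label in state 0 by log2 -0.39 (-0.52 to -0.25) and in state 1 by -1.04 (-1.15 to -0.93), and higher in state 3 by 0.22 (0.09 to 0.35). With the 5 states weighted alike, only Hes1 (log2 0.66) and Hes5 (0.98) were past 1.5-fold of the 9 measured members. Jag1 was then at 0.27, Notch1 at 0.51, Notch2 at 0.53 and Hey1 at 0.57.

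Most genes of the wider pathway were within 1.5-fold in tumour cells. Of 11 measured genes for receptor maturation and cleavage, 0 passed that size, with a median log2 ratio of 0.14. They include Psenen, a subunit of gamma-secretase, at 182 CPM under the Cav3.2KO label and 143 CPM under the WT label, and the sheddase gene Adam10 at 62.9 CPM under the Cav3.2KO label and 57.0 CPM under the WT label. Psen2 (0.48) and Aph1a (-0.22) had the widest ratios of the list. Of 13 genes of the nuclear complex 1 was higher, with a median of 0.10. It was Maml2, a coactivator gene, at 380 CPM under the Cav3.2KO label and 191 CPM under the WT label, while the corepressor gene Ncor1 had 341 CPM under the Cav3.2KO label and 332 CPM under the WT label and Tle3, another corepressor gene, a log2 ratio of -0.53.

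Of 6 measured genes for ligand endocytosis and fringe, 2 were lower under the Cav3.2KO label, with a median of -0.31. They were the ubiquitin ligase genes Neurl1a (log2 -0.60), at 16.2 CPM under the Cav3.2KO label and 24.6 CPM under the WT label, and Neurl1b (-0.67). Mib1, the main ligase that activates ligands, had 77.7 CPM under the Cav3.2KO label and 88.9 CPM under the WT label, and Neurl3 had the highest ratio at 0.51. Of 10 genes of turnover and inhibition, 2 were higher and 1 was lower, with a median of 0.14. Nrarp, a Notch target that dampens the signal, had 17.3 CPM under the Cav3.2KO label and 9.44 CPM under the WT label (0.88). Dtx3l was the other higher gene (0.84), named because the count is small, and the Deltex gene Dtx1 was the lower one (-0.76). Itch and Numb, which limit the receptor, had 120 CPM and 63.4 CPM under the Cav3.2KO label and 114 CPM and 45.8 CPM under the WT label.

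Of 6 measured other targets, 2 were higher, with a median of 0.38. They were Nrarp, which is on both lists, and Id3, an inhibitor of E-box factors, at 318 CPM under the Cav3.2KO label and 210 CPM under the WT label (0.60). Ccnd1 had 721 CPM under the Cav3.2KO label and 746 CPM under the WT label, and Myc a log2 ratio of -0.28. Of 5 measured proneural and lineage factors 2 were lower, with a median of -0.15 over the list. Olig2 had 147 CPM under the Cav3.2KO label and 238 CPM under the WT label (-0.70), and Id1, another inhibitor of E-box factors, had 44.6 CPM under the Cav3.2KO label and 93.4 CPM under the WT label (-1.07). Sox2 had 249 CPM under the Cav3.2KO label and 276 CPM under the WT label. Olig2 and Sox2 are among the markers of the tumour gate, so their levels in gated cells are partly set by it. The 4 other ligands and Notch4 had fewer than 100 UMIs each.

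Macrophages were the only other class with more than 1 member past the limit of size. Of 5 measured members, Jag1 was higher and Hes1 was lower under the Cav3.2KO label, against 6.02% of 9804 genes higher and 5.59% lower. The log2 ratio was 0.84 (0.45 to 1.24) for Jag1 and -0.76 (-0.97 to -0.56) for Hes1. Notch2 had 96.5 CPM under the Cav3.2KO label and 74.1 CPM under the WT label (0.38, 0.25 to 0.51). Notch1 had 20.3 CPM under the Cav3.2KO label and 26.4 CPM under the WT label (-0.38, -0.62 to -0.13), and Hes6 16.7 CPM under the Cav3.2KO label and 19.1 CPM under the WT label (-0.19, -0.47 to 0.09).

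Hes1 was lower in either kind of host cell. Under the Cav3.2KO label, macrophages with Xist alone had 26.1 CPM (23.3 to 29.1, 764 cells) and those with Y-linked UMIs alone had 12.4 CPM (8.49 to 17.5, 154 cells), against 40.8 CPM (36.7 to 45.2) in the 555 macrophages with Y-linked UMIs alone under the WT label. Jag1 had 11.5 CPM (9.68 to 13.6) in the Xist set and 23.3 CPM in the Y-linked set under the Cav3.2KO label, against 7.84 CPM (6.10 to 9.92) in the Y-linked set under the WT label. In cells with Y-linked UMIs alone the log2 ratios were -1.72 for Hes1 and 1.57 for Jag1, and Hes6 was past the limit as well at -0.70. With the Xist set under the Cav3.2KO label against all macrophages under the WT label they were -0.62 for Hes1 and 0.55 for Jag1, the second within 1.5-fold. Under the Cav3.2KO label the Xist set and the Y-linked set also stood apart from each other in both genes.

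**Figure D4:**
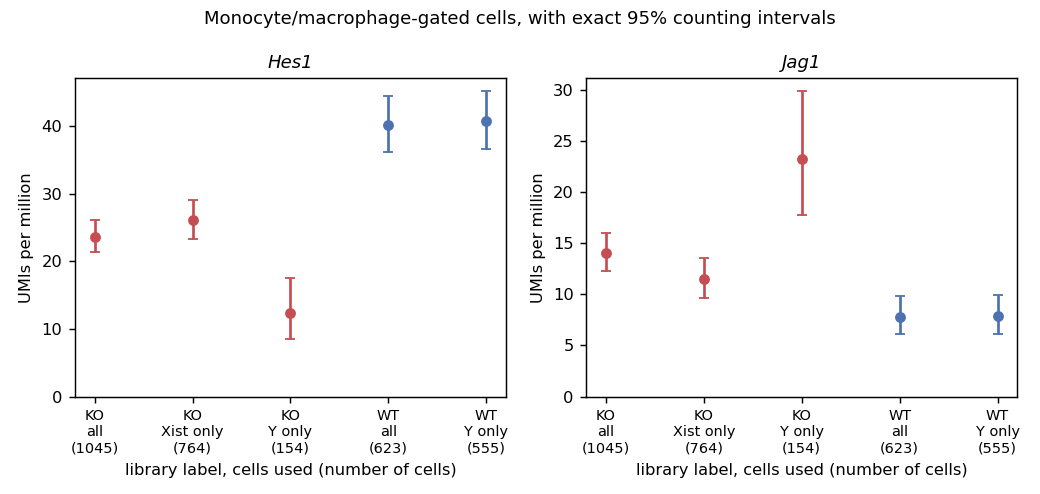
Hes1 and Jag1 levels (CPM) in monocyte/macrophage-gated cells, for all cells and for cells with only Xist or only Y-linked UMIs, under the Cav3.2KO label (left 3 points) and the WT label (right 2 points), with exact 95% counting intervals. Hes1 lies at 12.4 to 26.1 CPM under the Cav3.2KO label and at 40.1 and 40.8 CPM under the WT label.

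The libraries filled the macrophage clusters differently. The cluster led by Ly6i and Inhba, with Arg1, a gene of alternatively activated macrophages, held 582 cells under the Cav3.2KO label and 201 under the WT label. The cluster led by H2-M2 and Mmp13, with the adhesion gene Vcam1, held 255 cells under the Cav3.2KO label and 316 under the WT label. In the H2-M2 cluster Hes1 had 24.3 CPM under the Cav3.2KO label and 45.5 CPM under the WT label (-0.91, -1.20 to -0.61). In the Ly6i cluster its interval included 0 (-0.39, -0.84 to 0.08). Jag1 in the Ly6i cluster had 19.1 CPM under the Cav3.2KO label and 9.0 CPM under the WT label (1.09, 0.38 to 1.88), and in the H2-M2 cluster its interval included 0 (0.29, -0.25 to 0.83). Each gene was thus past the limit of size in 1 of these clusters.

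The 8 cell division genes were all at least 1.5-fold lower in macrophages, with sums of 101 CPM under the Cav3.2KO label and 244 CPM under the WT label. The 10 stress genes summed to 4611 CPM under the Cav3.2KO label and 4602 CPM under the WT label, with 0 higher and 1 lower past 1.5-fold. The lower gene was Fosb, at 260 CPM under the Cav3.2KO label and 400 CPM under the WT label (-0.62), and Ier2 had the highest ratio at 0.29. Tumour markers summed to 22.8 CPM in macrophages under the Cav3.2KO label and 21.6 CPM under the WT label, with 2 of 10, Ncan among them, at 0 in both libraries. Microglia markers summed to 598 CPM under the Cav3.2KO label and 625 CPM under the WT label. The part of these measures in the Hes1 and Jag1 ratios was not tested.

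Of the wider lists in macrophages, 1 of 5 measured other targets was higher, Bcl6, a repressor gene, at 130 CPM under the Cav3.2KO label and 72 CPM under the WT label (0.85). Id1 was lower, at 13.5 CPM under the Cav3.2KO label and 24.8 CPM under the WT label (-0.87), and so was Rfng, a fringe gene that modifies receptors, at 4.12 CPM under the Cav3.2KO label and 6.65 CPM under the WT label (-0.69). Of the measured genes of maturation and cleavage (11), the nuclear complex (13) and turnover (7), 0 passed 1.5-fold.

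**Figure D5:**
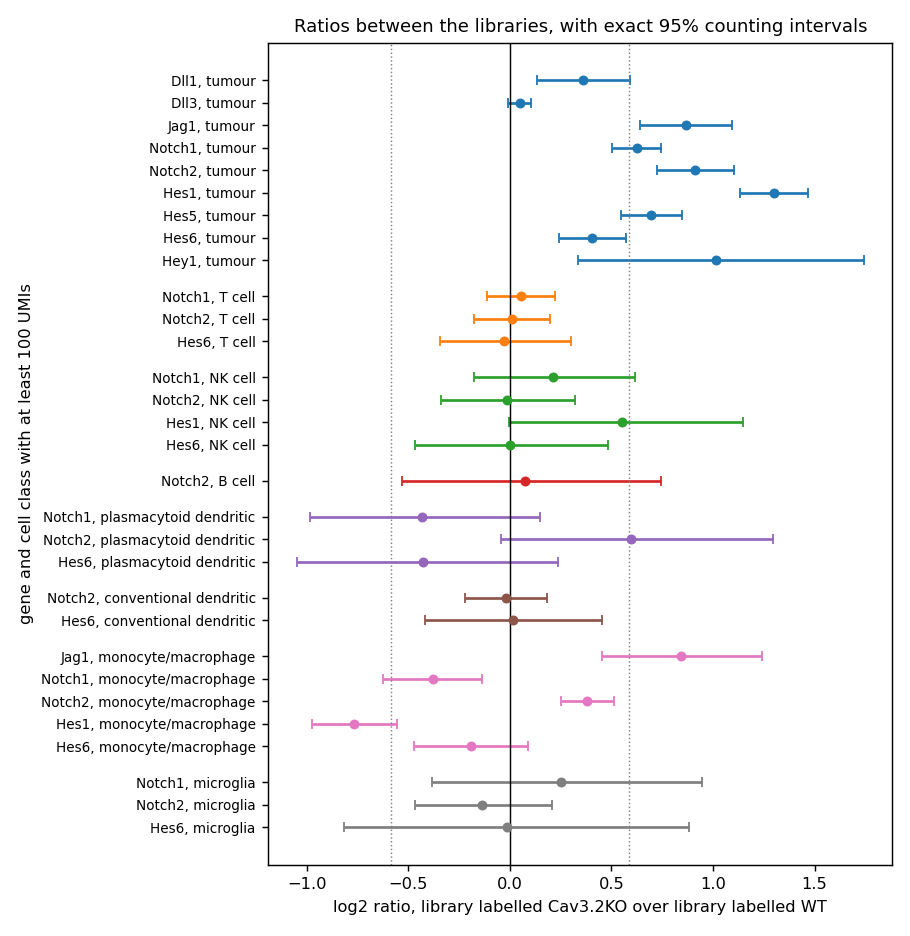
Log2 ratio of the library labelled Cav3.2KO over the library labelled WT for every member with at least 100 UMIs in a class (1 row per gene and class, coloured by class), with exact 95% counting intervals and dotted lines at 1.5-fold. The points past the upper line are 6 in tumour cells, Jag1 in macrophages and Notch2 in plasmacytoid dendritic cells, and Hes1 in macrophages is past the lower line.

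In T cells 0 of 3 measured members were past 1.5-fold, against 6.4% of 10234 genes higher and 2.31% lower. Notch1 had a log2 ratio of 0.05 and Notch2 0.01, with 54.8 CPM of Notch2 under the Cav3.2KO label and 54.4 CPM under the WT label. In T cells with Y-linked UMIs alone, Notch1 had 77.5 CPM (67.8 to 88.1, 281 cells) under the Cav3.2KO label and 66.4 CPM (59.6 to 73.7, 521 cells) under the WT label. The T cell cluster led by Il13 and Il2 had the highest Notch1 of the 5 clusters with at least 50 cells in each library, at 83.5 CPM under the Cav3.2KO label and 82.6 CPM under the WT label. The cluster led by Frmd5 and Lrrc32, with Foxp3, the factor of regulatory T cells, had 70.8 CPM under the Cav3.2KO label and 73.4 CPM under the WT label.

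In NK cells 0 of 4 members were past it (8.27% of 7360 genes higher and 6.3% lower), with Hes1 nearest, at 22.3 CPM under the Cav3.2KO label and 15.2 CPM under the WT label (0.55, -0.01 to 1.15). With each cell weighted alike that ratio was -0.05. In microglia 0 of 3 were (4.9% of 7367 higher and 6.47% lower), and in B cells 0 of 1 (14.1% of 4391 higher and 11% lower), where Notch2 had 24 UMIs under the WT label. Plasmacytoid dendritic cells had 1 of 3 past the limit (6.5% of 4507 higher and 5.39% lower). It was Notch2 at 65.1 CPM under the Cav3.2KO label and 43.1 CPM under the WT label, and its interval included 0 (0.60, -0.04 to 1.30). Under the Cav3.2KO label it had 64.8 CPM (54.0 to 77.1) in the 171 of these cells with Xist alone and 62.5 CPM (37.6 to 97.5) in the 25 with Y-linked UMIs alone, against 45.0 CPM (28.2 to 68.1) in the 52 with Y-linked UMIs alone under the WT label. These intervals overlapped.

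In conventional dendritic cells 0 of 2 measured members were past the limit (7.56% of 8046 genes higher and 7.93% lower). Hes1 had fewer than 100 UMIs there, with 5.21 CPM (33 UMIs) under the Cav3.2KO label and 14.6 CPM (64 UMIs) under the WT label. In the cluster led by Snx22 and Ank1 it had 7.83 CPM (18 UMIs, 111 cells) under the Cav3.2KO label and 25.6 CPM (60 UMIs, 130 cells) under the WT label (log2 -1.71, -2.56 to -0.93). This value was singled out after it was seen.

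The genes whose levels over the 18 sums of a class and library were most like those of a member are given as a description, with Pearson's r on the log2(CPM + 1) scale. For Dll3 they were Ntn1 (0.94), Cdc42ep5 (0.93) and Sgcz (0.93), and for Dll1 Dmwd (0.93), Fam171a1 (0.92) and Mterf4 (0.92). For Notch2 they were Rap1b (0.95), Arhgap25 (0.93) and Msn (0.93), and for Notch1 Fbxo22 (0.85), Blmh (0.83) and Tacc2 (0.83). For Jag1 they were Atp5md (0.87), Cox6b1 (0.87) and Gm48089 (0.87), and for Hes6 Zfp398 (0.89), Cdh24 (0.88) and Egfr (0.87). For Hes1 they were Gm15418 (0.81), Pctp (0.79) and Pxdc1 (0.79), and for Hes5 2410006H16Rik (0.83), Sirt6 (0.83) and Gm8126 (0.83). Notch3 and Hey1 had fewer than 300 UMIs. All points of a library share its depth and its free RNA.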

How the data were processed

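Brain tissue with the implanted tumour was dissociated and made into 10x Genomics libraries, per the labels' protocols. The authors deposited raw UMI counts per cell barcode, unnormalized, from Cell Ranger 7.1.0 on build mm10, per the submitters' processing notes, which also name Seurat 5.0.2 without its role. Matrices also list human genes, which were not used and held 0.0196% of UMIs under the Cav3.2KO label and 0.0198% under the WT label. The sources used here do not say whether introns or strand were used in counting.

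The filter kept barcodes with 500 or more mouse genes and no more than 10% of UMIs from mt- genes, 6575 of 8369 under the Cav3.2KO label and 3110 of 7382 under the WT label. A cell joined 1 of 15 classes when it held at least 3 of the class's 8 to 12 markers and at least 2 more than of any other class. The 703 cells under the Cav3.2KO label and 429 under the WT label that met no gate stayed out of classes, among them barcodes with markers of several classes. No doublet caller was used in the main values. Scrublet's automatic threshold marked 2.51% under the Cav3.2KO label and 0.257% under the WT label and so did not work for the WT label, so as an alternative the barcodes with the highest scores were removed.

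UMIs were summed per class and library and scaled to CPM. Intervals are exact Poisson intervals for levels, Clopper-Pearson intervals for shares, and conditional binomial intervals for ratios. They cover counting error only, and no p-value is given because there is 1 library per label. Where a gene was at 0 in 1 library, 3 counts stood in its place. Tumour states are Leiden clusters at resolution 0.5 over 2000 variable genes without the members, and leading genes were ranked by fold. The code was tested on simulated counts. Scrublet ran in scanpy 1.11.5. Clustering ran in leidenalg 0.10.2 with igraph 0.11.9, on neighbours found with scikit-learn 1.9.0. Sums and intervals were made in pandas 2.3.3 and scipy 1.17.1 under Python 3.11.15. Promoters came from RefSeq (GRCm38.p6).

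The members, markers and pathway lists were chosen with earlier results of these data known. All 10 members are accounted for. Of each wider list, the genes named in tumour cells are the 2 with the most UMIs and those with the widest ratio in each direction, in macrophages those past 1.5-fold, and for likeness the 3 genes with the highest r among genes with at least 300 UMIs. Exceptions are stated, and values of some genes are not reported here. Alternatives were a stricter gate, clusters in place of gates, doublet removal, looser filters, another scaling, equal weight for cells or for states, thinning, cells with Y-linked UMIs alone, a minimum of 20 UMIs and another Leiden resolution.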

Additional observations from a re-analysis of the deposited data

Results flagged for a closer look

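The Hes1 log2 ratio of Cav3.2KO over WT label was 1.30 in tumour cells and -0.76 in macrophages, so that it went in opposite directions in these classes of the same 2 libraries. The difference of 2.07 was not tested, since each label has 1 library.

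Classes under 50 cells entered no comparison, but held high levels of 2 members. Notch3 had 510 CPM (351 to 717, 33 UMIs, 11 cells) in pericyte/fibroblast-gated cells under the Cav3.2KO label and 264 CPM (201 to 341, 59 UMIs, 14 cells) under the WT label, and the difference was not tested. Hes1 had 154 CPM (110 to 209, 34 cells) in endothelial-gated cells under the Cav3.2KO label and 142 CPM (105 to 187, 21 cells) under the WT label, with overlapping intervals. These classes were singled out after their values were seen.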

How the results depend on the processing

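No paired analysis was possible because each label has 1 library. Of 482 values recomputed under an alternative, 433 moved little and 49 moved further. Among ratios past 1.5-fold, 0 changed direction. Ratios within 1.5-fold often lie near 0 and several changed sign, among them Dll3 in tumour cells (-0.36 with states weighted alike), Hes1 in NK cells (-0.05 with cells weighted alike), Notch2 in conventional dendritic cells (0.31 after thinning) and Notch2 in T cells (-0.20 in cells with Y-linked UMIs alone). Those chosen after seeing the data were Xist-only cells, tumour cells without states 7 and 8 (which are led by genes of other cell types), tumour cells without Xist or Y-linked UMIs, and levels without the 2 cells with the most UMIs.

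The count of 6 members higher in tumour cells was 3 of 8 measured with the stricter gate, 3 of 4 after thinning and 2 of 9 with states weighted alike. Hes1 stayed past 1.5-fold in 11 of 11 alternatives (log2 0.66 to 1.45), Hes5 in 10 of 11 (0.47 with the stricter gate) and Notch1 in 9 of 11 (0.51 with states weighted alike). In macrophages the 1 higher of 5 measured members was 0 of 5 with Xist-only cells, where Jag1 had a log2 ratio of 0.55, and 3 of 7 at a minimum of 20 UMIs. After thinning 0 of 2 measured members were higher, and Jag1 had too few UMIs to be measured. The 1 lower member was 0 of 2 after thinning, with Hes1 at -0.53, and 2 of 5 in cells with Y-linked UMIs alone.

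The Dll3 level in tumour cells was 201.5 CPM under the Cav3.2KO label and 192 CPM under the WT label without the 2 cells with the most UMIs, and 210.4 CPM under the WT label with the stricter gate. At Leiden resolution 1 the highest over the lowest state was 115 for Hes5 under the Cav3.2KO label, in place of 35.4, and 10.3 for Dll3 under the WT label, in place of 19.3. One library per label, uneven depth and the mixed sex of hosts limit all ratios. The cause of these moves was not tested.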

Other observations

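Vessel-associated cells, too few for the comparisons, held several members. Pericyte/fibroblast-gated cells had 108 CPM of Jag1 (43.5 to 223, 7 UMIs) under the Cav3.2KO label and 139 CPM (94.3 to 197, 31 UMIs) under the WT label. Endothelial-gated cells had 107 CPM of Notch1 (71.4 to 155) under the Cav3.2KO label and 119 CPM (85.8 to 161) under the WT label. Hey1 had 19.2 CPM (5 UMIs) in endothelial cells under the Cav3.2KO label and 48.2 CPM (17 UMIs) under the WT label. All of these pairs overlapped in their intervals.

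Neuroblast/neuron-gated cells had 79.0 CPM of Hes6 (63.4 to 97.3, 90 cells) under the Cav3.2KO label and 85.0 CPM (54.5 to 126, 25 cells) under the WT label. Hes1 had 0 UMIs in these cells in both libraries, and a count of 0 allows up to 2.69 CPM under the Cav3.2KO label and 10.6 CPM under the WT label. In the T cell cluster led by Il17a and Trdc, a chain of the gamma-delta T cell receptor, Jag1 had 33.3 CPM (24 UMIs, 86 cells) under the Cav3.2KO label and 2 UMIs in 18 cells under the WT label. These values were singled out after they were seen.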
